A study of Bos taurus with 11 samples.

Results

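Messenger RNA was followed across 3 regions of the mammary gland, ordered as far stroma, close stroma and parenchyma, within heifers 3, 4 and 5. These ordered triplets hold 9 of the 11 samples of the series and 3 of its 4 heifers, and were chosen by the region and the animal named in the labels. All animals were untreated Holstein heifers aged 10 to 12 months, so breed, age and the absence of treatment are shared by far stroma, close stroma and parenchyma (n = 3 each). Every sample was a piece of bulk tissue, sequenced after selection of polyadenylated RNA, and the labels state neither the distances between regions nor how the pieces were cut. Of heifer 1, far stroma and parenchyma were used for a check of direction and in the alternative fit of all 11 samples, and had no part in the shapes. By its title, the series asked how expression differs between stroma and parenchyma of the bovine gland.

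Of 16279 genes in the deposited table, 12099 had a mean of 50 or more normalised counts in at least 1 region. Each of these received a shape in each triplet, which was a steady rise from far stroma to parenchyma, a steady fall, close stroma above both other regions, or close stroma below both. A gene was assigned to a shape where the strict order of values held in all 3 triplets. The highest region means just below the limit were 49.95 for HEPH, 49.97 for WNT7B and 49.99 for PYGO1, and those just inside it were 50.1 for CCDC150, TESK2 and EML6. A shape needs no test, and "in order" below refers to the shape alone. Separately, the outer step (close stroma minus far stroma) and the inner step (parenchyma minus close stroma) were tested with limma over all genes, and a step was called at a Benjamini-Hochberg adjusted p under 0.05. Single libraries are named by region and heifer, such as close stroma 3, and where leaving out 1 of them ended a call it is named. This was not done for genes outside the lists that were chosen after their values were seen.

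In the growing heifer udder, parenchyma is the ductal tree, built from luminal and basal epithelial cells, and it extends into a pad of fat and connective tissue. The stroma carries adipocytes, fibroblasts, vessels, nerves and immune cells, and exchanges secreted signals such as WNT proteins, fibroblast growth factors and insulin-like growth factors with the ducts. Lymphocytes also lie within and around mammary ducts, and plasma cells in the gland supply antibodies to its secretions.

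Recovered reads ran from 7274474 to 10431459 per sample. Far stroma had 798 to 1128 genes at 0, close stroma 233 to 337, and parenchyma 336 to 361. The summed level of 6 epithelial markers was 239 to 390 in far stroma, 12890 to 26240 in close stroma and, in parenchyma, 27020 to 31390. The 6 adipocyte markers summed to 183600 to 261500, then 43870 to 155200, then 722 to 1030. Skeletal muscle markers summed to at most 46.8 and skin markers to at most 87.0 in any sample. Parenchyma and far stroma thus matched their labels, and close stroma carried markers of both. In bulk samples, fewer cells of a type and less RNA per cell cannot be told apart. A principal component with 71.2% of the variance placed the far samples between -131 and -109, and the parenchymal ones between 95.2 and 103. The close stroma of heifer 3 lay at -16.4, nearer to far stroma than those of heifer 4 (51.7) and heifer 5 (33.4). Over 5388 to 5391 genes that differed at least 2-fold between the means of far stroma and parenchyma, the median gene in the close stroma of heifer 3 had covered 25% of the linear distance from far stroma to parenchyma, against 79.3% in heifer 4 and 68.9% in heifer 5. The triplet of heifer 3 thus stands apart, and the counts of shapes, step calls and midpoint calls are also given without it.

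Steady orders were the most common of the shapes. A steady rise was found for 1505 genes (12.4%) and a steady fall for 1508 (12.5%), whereas close stroma lay above both other regions for 277 genes (2.29%) and below both for 451 (3.73%). The remaining 8358 genes (69.1%) had different shapes in different triplets or a tie. Within single triplets, 3851 genes rose and 3941 fell in order in heifer 3, 3167 and 3414 in heifer 4, and 3138 and 3272 in heifer 5. Heifers 4 and 5 gave the same shape for 56.3% of genes, heifers 3 and 4 for 46.5% and heifers 3 and 5 for 44.6%. The balance depended on the scaling. With each library scaled to its total, which moved the median of all genes by 0.38 on the log2 scale in the outer step and by 0.09 in the inner step, 2512 genes rose and 767 fell in order, and close stroma lay above both for 431 and below both for 116. In the triplets of heifers 4 and 5 alone, 1922 genes rose and 1962 fell in order, and close stroma lay above both for 1448 and below both for 1475. Without heifer 4 or 5 close stroma lay above both for 406 and 458 genes and below both for 692 and 820, and over a pair of triplets a shape has fewer orders to meet than over 3. Asking for a step of at least 1.5-fold in every triplet left 259 genes rising, 121 falling, 3 above and 0 below.

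**Figure D1:**
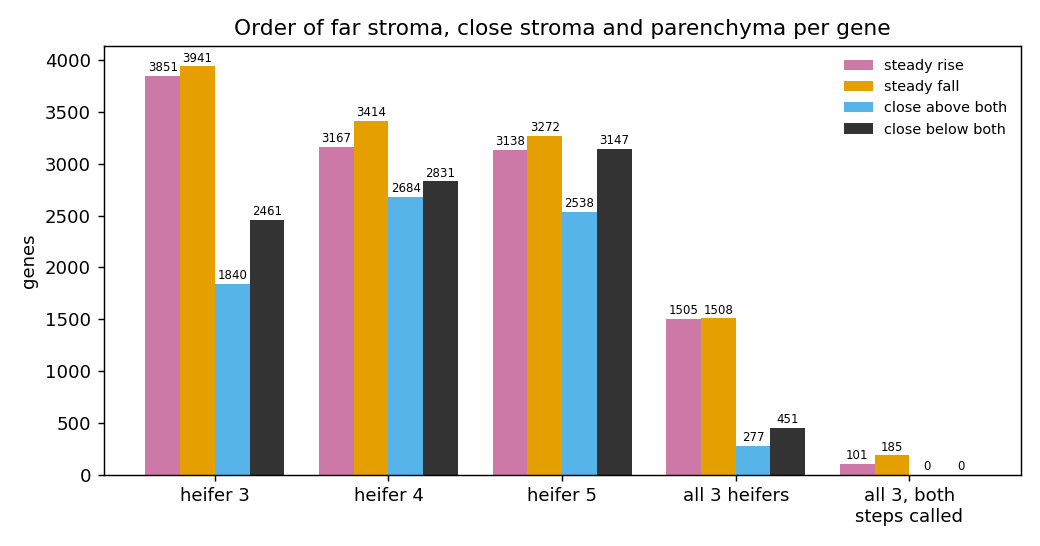
Number of genes (vertical axis) with each of the 4 shapes in the triplets of heifers 3, 4 and 5, in all 3 triplets, and in all 3 triplets with both steps called. Of 12099 genes, 1505 rose and 1508 fell in order in every triplet, and 101 and 185 of these had both steps called.

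More genes were called in the outer than in the inner step. Of 14581 genes tested, 2571 (17.6%) were called between far and close stroma, 1651 higher (11.3%) and 920 lower (6.31%) in close stroma. Between close stroma and parenchyma 783 (5.37%) were called, 183 higher (1.26%) and 600 lower (4.11%) in parenchyma. Between far stroma and parenchyma 6709 (46%) were called, 3504 higher (24%) and 3205 lower (22%) in parenchyma. With library-total scaling the outer step had 3192 higher and 265 lower calls, and the whole distance 5959 and 1873. The outer count was 4539 without far stroma 3, 1409 and 1339 without far stroma 4 and 5, 3925 without close stroma 3, and 1115 and 1102 without close stroma 4 and 5. The inner count was 1203 without far stroma 3, 309 and 377 without close stroma 3 and 5, and 281, 257 and 377 without parenchyma 3, 4 and 5. Without heifer 3 altogether the outer step had 3073 higher and 2387 lower calls and the inner step 42 and 235. The heifer as a block raised the inner count to 1184.

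Both steps were called for 101 of the rising genes (0.835% of 12099) and for 185 of the falling genes (1.53%). In the rising genes the median outer step was 2.61 and the median inner step 1.18 on the log2 scale, so on that scale the outer step was the larger. In the falling genes the medians were -1.35 and -1.97, and the inner step was the larger on the log2 scale. These steps were not summarised on the linear scale, where the division can differ. MZB1, below, gained more counts in the inner step in each heifer. Among all 1505 rising genes the outer step was called for 830 (55.1%), the inner step for 127 (8.44%) and neither for 649 (43.1%). Among the 1508 falling genes these counts were 517 (34.3%), 433 (28.7%) and 743 (49.3%). No gene with close stroma above or below both others had both steps called by limma or by edgeR. At an unadjusted p under 0.05 for both steps there were 10 and 28 such genes, DESeq2 called 0 and 5, and the heifer block 1 and 1. With the block, 183 rising and 283 falling genes had both steps called. Without heifer 3, 4 or 5 altogether, both steps were called for 20, 23 and 1 rising genes and for 173, 7 and 2 falling genes.

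**Figure D2:**
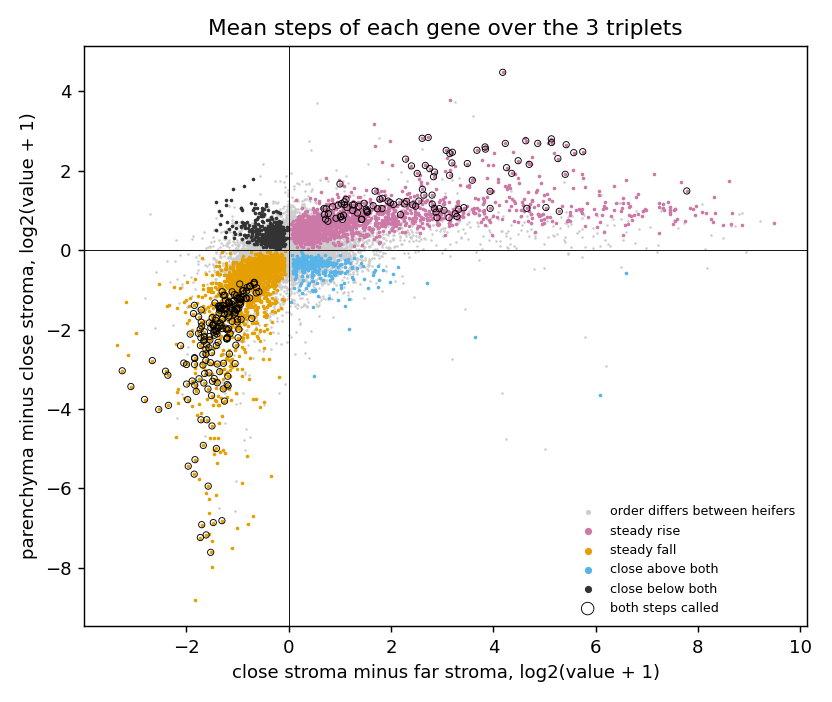
Mean log2 difference of each gene in the outer step (close stroma minus far stroma, horizontal axis) and the inner step (parenchyma minus close stroma, vertical axis), with genes that had both steps called circled. The 101 rising genes have median steps of 2.61 and 1.18, and the 185 falling genes -1.35 and -1.97.

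The 8 rising genes with the largest smaller step were COL26A1, MZB1, PLA2G5, VIPR1, ETV4, FUT2, TMEM59L and FOXA3. They include a plasma cell gene, a peptide receptor and a pair of transcription factors. The values of each are given below in the order of heifers 3, 4 and 5.

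COL26A1, a collagen chain, was at 6, 4.51 and 1.61 in far stroma, 53.7, 21.6 and 22.6 in close stroma and 93.5, 219 and 515 in parenchyma. No region overlapped another, and the outer step was 2.73 ± 0.63 (SE, log2, adjusted p = 0.0159) and the inner step 2.84 ± 0.63 (adjusted p = 0.0288). The outer call was lost without far stroma 5 (adjusted p = 0.0615), and the inner call without close stroma 4 or 5 or parenchyma 4 or 5 (adjusted p = 0.0566 to 0.105). MZB1, an endoplasmic reticulum protein of plasma cells that assists antibody assembly, was at 1.2, 2.26 and 0 in far stroma, 31.6, 15.9 and 26.3 in close stroma and 133, 111 and 188 in parenchyma. Its 3 reads in far stroma give a ratio of close to far stroma of 19.2 (95% counting interval 6.32 to 94.9), and its inner step was 2.52 ± 0.50 (adjusted p = 0.0183). The inner call was lost without close stroma 5 or any single parenchyma library (adjusted p = 0.0548 to 0.0816). PLA2G5, a secreted phospholipase, was at 2.4, 1.13 and 6.45, then 41.2, 32.8 and 25.4, then 190, 228 and 135. Its steps were 3.15 ± 0.47 (adjusted p = 0.00115) and 2.43 (adjusted p = 0.0166), with the inner call lost without close stroma 5 or parenchyma 3 or 4 (adjusted p = 0.0632 to 0.0871).

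VIPR1, a receptor for vasoactive intestinal peptide, was at 4.8, 4.51 and 6.45 in far stroma, 17.3, 27.2 and 52.5 in close stroma and 122, 140 and 187 in parenchyma. The 3 regions did not overlap, and the steps were of similar size at 2.29 ± 0.42 (adjusted p = 0.00446) and 2.3 (adjusted p = 0.013), the inner one lost without parenchyma 4 or 5 (adjusted p = 0.0575 to 0.0616). ETV4, an ETS-family transcription factor, was at 2.4, 3.39 and 1.61, then 18.2, 48.8 and 29.9, then 110, 198 and 129. Its steps were 3.19 ± 0.44 (adjusted p = 0.000668) and 2.20 (adjusted p = 0.0183). FUT2, a fucosyltransferase that builds blood-group sugars of secretions, had no read in far stroma, 18.2, 33.8 and 25.4 in close stroma and 128, 122 and 98.9 in parenchyma. Against a floor of 3 reads for the whole far stroma group, it was at least 20.1-fold higher in close stroma, and its inner step was 2.16 ± 0.39 (adjusted p = 0.0124). The inner call of FUT2 was lost without parenchyma 3 or 4 (adjusted p = 0.0685 to 0.075).

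TMEM59L, a membrane protein, was at 70.8, 26.0 and 17.7 in far stroma, 159, 320 and 181 in close stroma and 705, 891 and 1258 in parenchyma. The regions did not overlap, and its steps were 2.67 ± 0.46 (adjusted p = 0.0029) and 2.14 (adjusted p = 0.025). FOXA3, a forkhead transcription factor, was at 1.2, 2.26 and 3.23, then 21.1, 23.4 and 7.25, then 70.7, 74.9 and 66.8, with steps of 2.40 ± 0.49 (adjusted p = 0.00853) and 2.12 (adjusted p = 0.0346). The inner calls of ETV4, TMEM59L and FOXA3 were lost without close stroma 3 or 5 or any single parenchyma library (adjusted p = 0.0527 to 0.125). The steepest rises by this measure belonged to genes for which the table gives no symbol. ENSBTAG00000047815 was at 10.8, 3.39 and 3.23 in far stroma, 98.8, 222 and 58.0 in close stroma and 2364, 1420 and 4365 in parenchyma, a step of 4.18 followed by one of 4.48. ENSBTAG00000048135 was at 54.0, 31.6 and 62.9, then 3570, 694 and 2000, then 16485, 5980 and 17213 (steps of 5.13 and 2.81).

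**Figure D3:**
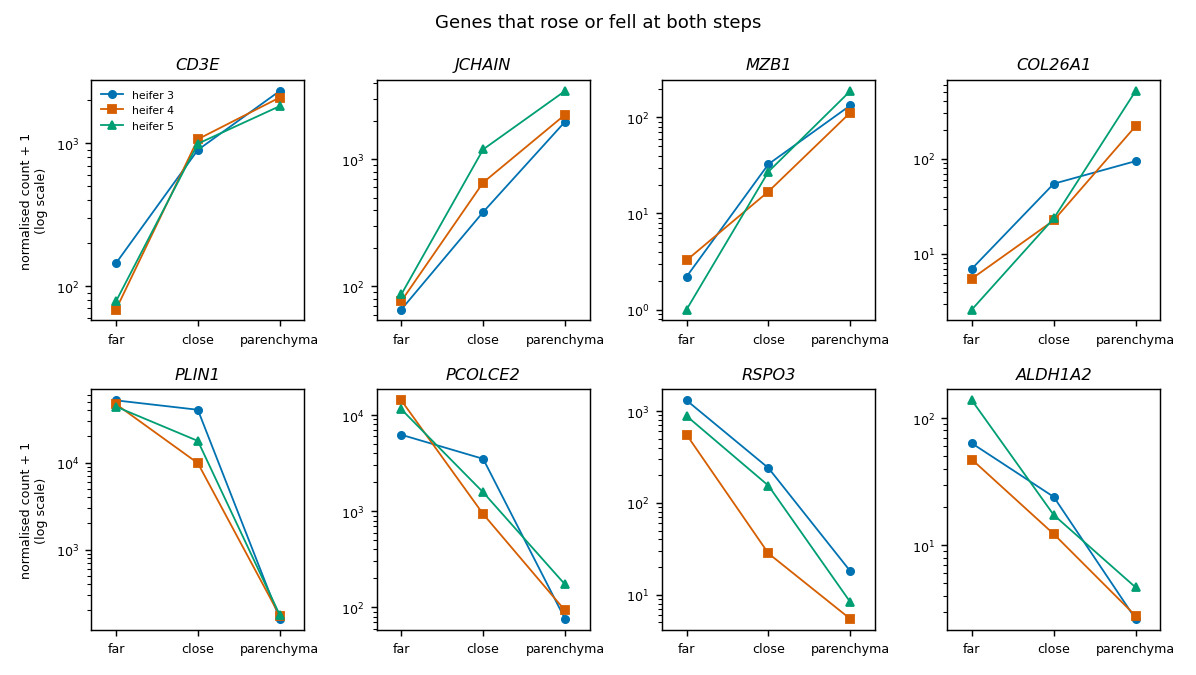
Normalised counts (log axis, value plus 1) of 4 rising genes (CD3E, JCHAIN, MZB1, COL26A1) and 4 falling genes (PLIN1, PCOLCE2, RSPO3, ALDH1A2) in far stroma, close stroma and parenchyma, with each heifer as a line of 3 points. Each line keeps its direction over both steps, and heifer 3 has the highest close stroma value of the 4 falling genes.

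Genes of T cells and natural killer cells rose toward parenchyma. Of 19 members tested, 18 were higher in close than in far stroma (median step 2.88 on the log2 scale, against 0.00 over all genes), and 16 to 18 with any single library left out. In the inner step 6 were called (median 0.95, against 0.04 over all genes), and 15 of the 18 with a mean of 50 or more rose in order in all 3 triplets, against 12.4% of all genes. Called higher among all genes were 11.3% in the outer step and 1.26% in the inner step. CD3E, a chain of the T cell receptor complex, was at 144, 67.7 and 77.4 in far stroma, 900, 1070 and 995 in close stroma and 2331, 2097 and 1825 in parenchyma. These ranges lay well apart, and the steps were 3.42 ± 0.26 (adjusted p = 9.3e-06) and 1.07 (adjusted p = 0.0388). The adhesion receptor CD2, at 24.0, 18.1 and 19.4, then 172, 217 and 226, then 451, 402 and 318, had steps of 3.26 and 0.92, and the kinase LCK, which acts beneath the T cell receptor, had steps of 3.04 and 1.00. The chemokine CCL5, made by activated T and natural killer cells, was at 68.4, 81.3 and 107, then 494, 891 and 552, then 1237, 1307 and 1104, with steps of 2.88 and 0.96, the inner one near the threshold (adjusted p = 0.0499, and 0.0546 by edgeR). ZAP70 (2.27 and 1.17) and CD4 (1.65 and 1.12), named after their values were seen, were the other members with both steps called.

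The inner calls of CD3E, CD2, LCK and CCL5 were each lost without close stroma 3, close stroma 5 or any single parenchyma library, that of CD2 also without far stroma 5 or close stroma 4, and that of CCL5 without far stroma 4 (adjusted p = 0.055 to 0.187). The 6 inner calls became 0 without close stroma 3 or parenchyma 3 or 4, 1 without close stroma 5 or parenchyma 5, 2 with all 11 samples, and 12 by DESeq2. With all 11 samples the inner calls of CD3E, CD2, LCK and CCL5 were lost too (adjusted p = 0.0784 to 0.129). Those of CD2 and CCL5 were also lost with TMM scaling, a pseudocount of 0.5 or no filter on low values (adjusted p = 0.0501 to 0.0552), and that of CD2 with library-total scaling (adjusted p = 0.0633) and with the heifer block (adjusted p = 0.0525). CD3E was called above the log2 midpoint of far stroma and parenchyma (by 1.18, adjusted p = 0.0268), a call lost without far stroma 5, close stroma 4 or 5 or any single parenchyma library (adjusted p = 0.0504 to 0.155) and with all 11 samples (adjusted p = 0.287). Markers of lymph node stroma summed to 608 to 1799 over the 9 samples, and their part in these results was not tested.

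Genes of B cells and plasma cells rose as well, with 9 of 16 members tested higher in close than in far stroma (median 1.81, or 2 with the ratios of reads used for 4 low members) and 2 higher in the inner step. The shares over all genes were 11.3% and 1.26%. The 9 became 4 without far stroma 4 or close stroma 5, 5 without far stroma 5 or close stroma 4, and 6 without parenchyma 3 or 4, by edgeR or with a pseudocount of 5. JCHAIN, which joins the subunits of secreted polymeric antibodies, was at 64.8, 75.6 and 85.5 in far stroma, 384, 655 and 1195 in close stroma and 1973, 2241 and 3445 in parenchyma. Its steps were 3.15 ± 0.36 (adjusted p = 0.000192) and 1.89 (adjusted p = 0.0162), and the inner call was lost without parenchyma 4 or 5 (adjusted p = 0.0559 to 0.0658) and with all 11 samples (adjusted p = 0.0665). With MZB1, described above, JCHAIN made up the inner calls of the list. CD79A, a signalling chain of the B cell receptor, was at 4.8, 7.9 and 11.3, then 92.0, 188 and 176, then 284, 179 and 460, a rise of 4.09 ± 0.43 in the outer step (adjusted p = 9.79e-05), while its inner step of 0.97 did not pass (adjusted p = 0.201). In heifer 4 alone, CD79A was lower in parenchyma than in close stroma. The receptor CR2 went the other way, at 1168, 971 and 279, then 356, 66.6 and 133, then 31.7, 10.7 and 61.3, although neither step passed.

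Antigen presentation genes were higher in parenchyma than in far stroma for 12 of 16 members tested, against 24% of all genes. In all 3 triplets 11 of the 15 with a mean of 50 or more rose in order, against 12.4% of all genes. Of the 16 tested, 6 were called higher in the outer step (median 0.80), against 11.3% of all genes. In the inner step 0 were called higher by limma with the 9 samples (median 0.71), against 1.26% of all genes. That inner count was 2 with the heifer block, with all 11 samples and without far stroma 3 or close stroma 4, and 5 by DESeq2. The 6 became 1 without close stroma 4, 2 to 4 without close stroma 3 or 5, any single far stroma library or parenchyma 4, 3 with all 11 samples and 12 with library-total scaling. The peptide transporter TAP1 was at 377, 571 and 505 in far stroma, 967, 1585 and 971 in close stroma and 2672, 2253 and 1659 in parenchyma, and rose by 1.26 ± 0.26 in the outer step (adjusted p = 0.00836). CD74, the invariant chain of class II molecules, was at 18107, 21513 and 16244, then 37393, 55971 and 27177, then 95178, 69927 and 75838. No 2 regions overlapped for CD74, yet its steps of 1.06 and 1.05 did not pass (adjusted p = 0.0632 and 0.115). Among chemokines, 7 of 21 tested were higher and 1 lower in close than in far stroma, against 11.3% and 6.31% of all genes. The higher calls became 3 without close stroma 4 and 4 without close stroma 5. CXCL10, which attracts activated T cells, was at 15.6, 2.26 and 8.06, then 87.2, 136 and 197, then 655, 486 and 318, an outer rise of 4.08 ± 0.55 (adjusted p = 0.000562). CCL28, a chemokine of epithelia that attracts antibody-forming cells, was at 1.2, 1.13 and 1.61, then 71.0, 306 and 209, then 186, 172 and 249, which is a ratio of 153 between close and far stroma (95% counting interval 52.1 to 744). CCL24 fell in the outer step from 528, 2737 and 597 to 252, 52.5 and 127, by 2.99 on the log2 scale (adjusted p = 0.0108), and was at 25.2, 24.1 and 33.0 in parenchyma.

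Epithelial genes were near their parenchymal level in close stroma on the log2 scale, where the median luminal gene had covered 81.6%, 98.9% and 89.3% of the way in heifers 3, 4 and 5. Of 21 luminal members tested, 20 were higher in close than in far stroma (median 6.90, or 6.99 with the ratios of reads used for 4 low members), also with any single library left out. In the inner step 0 were called with all 9 samples (median 0.79), and 2 were called higher without close stroma 4 or by DESeq2. In all 3 triplets 12 rose in order. Among all genes 11.3% were higher in the outer step and 12.4% rose in order. KRT8, a keratin of simple epithelia, was at 3.6, 15.8 and 4.84 in far stroma, 1429, 2490 and 1895 in close stroma and 3257, 3746 and 3462 in parenchyma. The regions did not overlap, with an outer step of 7.95 ± 0.41 (adjusted p = 7.57e-07) and an inner step of 0.88 that did not pass (adjusted p = 0.224). KRT7 had steps of 8.87 ± 0.32 and 0.63, and the epithelial adhesion molecule EPCAM 4.18 ± 0.43 and 0.47. RAB25, a regulator of vesicle traffic in epithelia, had no read in far stroma, so close stroma was at least 229-fold higher. In the close stroma of heifer 4 EPCAM stood at 2634, above the 2482 of its parenchyma.

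Basal and myoepithelial genes followed, with 13 of 18 higher in close than in far stroma (median 4.87, or 5.22 with the ratios of reads used for 5 low members) and 9 rising in order, against 11.3% and 12.4% of all genes. KRT5, a basal keratin, had an outer step of 8.49 ± 0.39 (adjusted p = 4.93e-07) and an inner step of 0.62 (adjusted p = 0.363). NGFR, a neurotrophin receptor of basal cells chosen after its values were seen, was the member with both steps called, at 134, 53.0 and 25.8, then 664, 723 and 709, then 1965, 2466 and 2759. The inner call of NGFR, the only one of the list, was lost without far stroma 4, close stroma 3 or 5 or any single parenchyma library. A pseudocount of 0.5 and no filter on low values ended it too. SOX10, a transcription factor of neural crest derivatives and mammary epithelium, was at 81.6, 64.3 and 74.2 in far stroma, 2477, 4159 and 2351 in close stroma and 5600, 5597 and 5922 in parenchyma. Its 3 regions did not overlap, with steps of 5.29 ± 0.22 (adjusted p = 2.13e-07) and 0.98 (adjusted p = 0.0298), the latter lost without close stroma 3 or 5 or any single parenchyma library (adjusted p = 0.0949 to 0.112).

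Hormone receptors and their target genes were higher in close than in far stroma for 6 of 14 members, against 11.3% of all genes. The 6 became 3 without far stroma 4 or 5 or close stroma 4 or 5. The prolactin receptor PRLR was at 54.0, 11.3 and 12.9, then 178, 767 and 548, then 713, 360 and 551, and rose by 4.33 ± 0.63 in the outer step (adjusted p = 0.000918). AREG, an epidermal growth factor receptor ligand induced by oestrogen, rose in order from 1.2, 12.4 and 4.84 through 109, 68.4 and 86.0 to 216, 239 and 262, with an outer step of 3.97 ± 0.54 (adjusted p = 0.000616) and an inner step of 1.45 that did not pass (adjusted p = 0.143). The progesterone receptor PGR, at 40.8, 13.5 and 33.9, then 46.0, 300 and 292, then 116, 188 and 389, had an outer step of 2.54 (adjusted p = 0.0351), lost without far stroma 4 or 5 or close stroma 4 or 5 or parenchyma 4 (adjusted p = 0.0546 to 0.14). The oestrogen receptor ESR1, at 700, 211 and 148, then 544, 685 and 588, then 1011, 514 and 696, passed in neither step (1.10 and 0.24, adjusted p = 0.121 for the outer one), and in heifer 3 it was lower in close than in far stroma. The growth hormone receptor GHR fell in order in all 3 triplets, and its inner step of -1.53 passed (adjusted p = 0.0341), though not without close stroma 3 or 5 or any single parenchyma library (adjusted p = 0.0732 to 0.123). In the cell cycle list 8 of the 15 genes with a mean of 50 or more rose in order, against 12.4% of all genes. Of its 22 genes tested, 16 were higher in parenchyma than in far stroma, against 24% of all genes. In the outer step 2 were called higher (11.3% of all genes) and in the inner step 2 (1.26% of all genes). The outer calls became 0 without far stroma 4 or 5, any single close stroma library or parenchyma 4 or 5, with all 11 samples, by edgeR, with a pseudocount of 5 or with no filter on low values. They became 6 without far stroma 3, 5 with library-total scaling and 4 with the heifer block. The inner calls became 1 without close stroma 5, 0 without close stroma 3 or any parenchyma library, and 5 with the heifer block. The 16 became 9 without parenchyma 3 and 10 without far stroma 5. The proliferation antigen MKI67, at 98.4, 20.3 and 24.2, then 155, 111 and 130, then 717, 265 and 266, had an outer step of 1.81 (adjusted p = 0.048; 0.0631 to 0.161 without far stroma 4 or 5, any single close stroma library or parenchyma 4 or 5). It did not pass with all 11 samples, by edgeR or DESeq2, with a pseudocount of 5 or with no filter either (adjusted p = 0.0501 to 0.134). The mitotic kinase PLK1 rose in the inner step, from 68.1, 70.3 and 91.5 in close stroma to 204, 162 and 175 in parenchyma (1.23, adjusted p = 0.0154), and was at 62.4, 73.4 and 77.4 in far stroma. That call was lost without close stroma 3 or any single parenchyma library (adjusted p = 0.052 to 0.0763).

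Whether close stroma lay at the midpoint between its neighbours depended on the scale. On the log2 scale 204 genes (1.4%) were called above the midpoint, of which 184 were higher in parenchyma than in far stroma and 20 higher in far stroma, and 0 were called below it by limma with all 9 samples or by edgeR (28 below by DESeq2, 363 at an unadjusted p under 0.05, 2 with the heifer block, 6 with all 11 samples). Genes above numbered 694 without far stroma 3 and 373 without close stroma 3, with 22 and 25 below, and 972 above and 123 below without heifer 3 altogether. Above the midpoint were 129 without parenchyma 4 and 82 without close stroma 5. With the midpoint taken on the linear scale within each heifer, 0 genes were called (401 above and 784 below at an unadjusted p under 0.05), and 1462 genes lay above and 3059 below it in 3 of 3 heifers. Of the 204, 21 lay above and 4 below the linear midpoint in every heifer. For 18 of 21 luminal and 8 of 18 basal members close stroma was above the log2 midpoint, which became 10 and 5 without close stroma 5, and the luminal count 13 without close stroma 4. On the linear scale the median luminal gene had covered 36.3%, 95.2% and 53.6% of the way to parenchyma in heifers 3, 4 and 5. T and natural killer cell genes had covered 37.5%, 54.7% and 53.6%, and B and plasma cell genes 21.2%, 95.8% and 37.7%. In heifer 4 the epithelial genes were thus nearly at their parenchymal level while the T cell genes were about midway, and in heifers 3 and 5 the luminal and T cell medians lay close to each other.

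**Figure D4:**
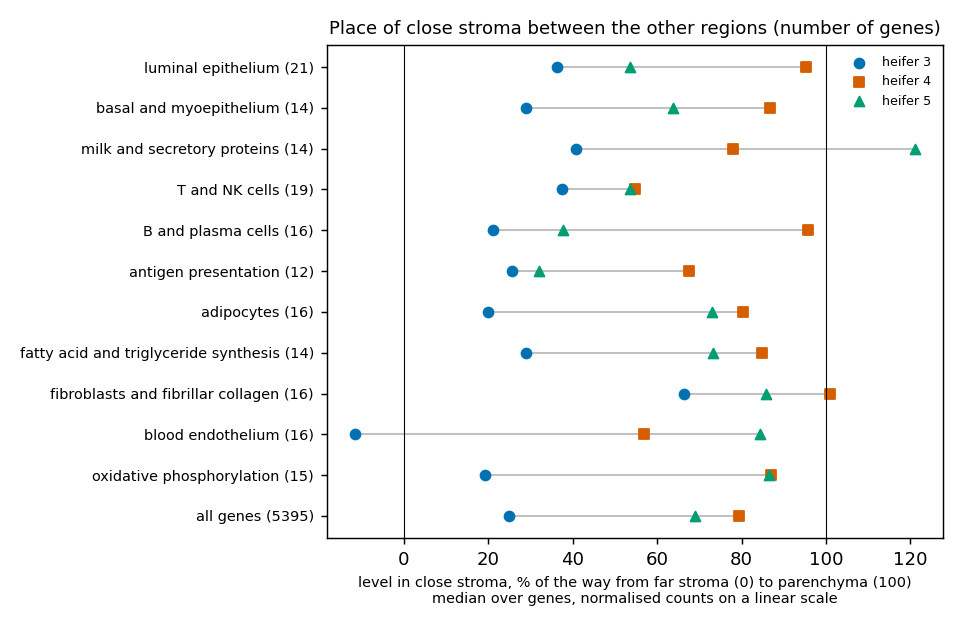
Median position of close stroma on the linear way from far stroma (0%) to parenchyma (100%) for the genes of each list that differed at least 2-fold between the ends, with 1 point per heifer. In the rows plotted heifer 3 lies lowest, as it does for 32 of 34 lists in all, and in heifer 4 the luminal list stands at 95.2% and the T and NK cell list at 54.7%.

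Falling genes with the largest smaller step were RSPO3, CD209, S100A5, PCOLCE2, TMEFF2, PITX1, CBLN2 and ALDH1A2. They cover an enhancer of WNT signalling, a lectin of macrophages and dendritic cells, a helper of collagen maturation and an enzyme of retinoic acid synthesis.

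RSPO3, a secreted protein that strengthens WNT signalling, was at 1306, 552 and 882 in far stroma, 239, 27.2 and 153 in close stroma and 17.1, 4.46 and 7.32 in parenchyma. The regions did not overlap, and the steps were -3.09 ± 0.72 (adjusted p = 0.0161) and -3.44 (adjusted p = 0.0231). The outer call was lost without far stroma 5 (adjusted p = 0.0544), and the inner call without close stroma 3 or 5 or parenchyma 4 or 5 (adjusted p = 0.0776 to 0.098). CD209 was at 939, 3372 and 711, then 309, 60.9 and 134, then 8.13, 16.9 and 27.5, with steps of -3.26 ± 0.68 (adjusted p = 0.00932) and -3.04 (adjusted p = 0.0296). PCOLCE2, which speeds the trimming of procollagens, was at 6234, 14204 and 11488, then 3501, 933 and 1571, then 74.8, 91.8 and 172. Its steps of -2.54 ± 0.48 (adjusted p = 0.00515) and -4.02 (adjusted p = 0.00132) were called with any single library left out. ALDH1A2 was at 62.4, 46.3 and 137, then 23.0, 11.3 and 16.3, then 1.63, 1.78 and 3.66, a fall of 2.12 and then of 2.41 on the log2 scale (adjusted p = 0.0178 and 0.023). The inner calls of CD209 and ALDH1A2 were lost without close stroma 3 or 5 or parenchyma 3 or 4 (adjusted p = 0.0702 to 0.118), and the outer call of ALDH1A2 without far stroma 5 or close stroma 4 or 5 (adjusted p = 0.0645 to 0.081).

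The remaining 4 were at or near 0 in parenchyma. S100A5, a calcium-binding protein, was at 280, 90.3 and 705 in far stroma, 71.0, 19.7 and 33.5 in close stroma and 0, 4.46 and 2.75 in parenchyma, with steps of -2.82 ± 0.81 (adjusted p = 0.0381) and -3.76 (adjusted p = 0.0255). TMEFF2, a transmembrane protein with follistatin-like modules, was at 62.4, 38.4 and 64.5, then 26.8, 3.75 and 7.25, then 0, 0 and 0.92, an outer step of -2.41 (adjusted p = 0.0316) and a ratio of close stroma to parenchyma of 42.9 (95% counting interval 7.26 to 1730). In PITX1, a homeobox factor known in mice for hindlimb identity, far stroma was at 27.6, 99.3 and 32.3, close stroma at 3.83, 18.8 and 6.34 and parenchyma at 0 throughout, an outer step of -2.36 (adjusted p = 0.035) and a level at least 11.1-fold lower in parenchyma than in close stroma. CBLN2, a secreted organiser of synapses in the mouse brain, was at 38.4, 102 and 215, then 17.3, 9.38 and 33.5, then 0, 0 and 0.92, an outer step of -2.35 (adjusted p = 0.0369) and a ratio of close stroma to parenchyma of 69.7 (95% counting interval 12.1 to 2790). Each of these 4 outer calls was lost without far stroma 5 or close stroma 5 (adjusted p = 0.0501 to 0.15 over all losses). Further losses came without far stroma 3, close stroma 4 or parenchyma 5 for S100A5, far stroma 3, far stroma 4 or close stroma 4 for TMEFF2, far stroma 4, close stroma 3 or parenchyma 4 for PITX1, and far stroma 4, close stroma 3 or 4 or parenchyma 4 for CBLN2. Those of TMEFF2 and PITX1 did not pass by edgeR either (adjusted p = 0.0614 and 0.0587). The outer call was lost with all 11 samples for S100A5 and PITX1 (adjusted p = 0.0773 and 0.156), with library-total scaling for PITX1 and CBLN2 (adjusted p = 0.055 and 0.0533), and with a pseudocount of 0.5 for S100A5 and CBLN2 (adjusted p = 0.0578 and 0.0501). Inner calls of S100A5, TMEFF2 and PITX1 were likewise lost without close stroma 5 or parenchyma 3, and for some of them close stroma 3 or parenchyma 4 or 5 (adjusted p = 0.0606 to 0.111), and those of TMEFF2 and PITX1 with a pseudocount of 5 (adjusted p = 0.0789 and 0.118).

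Adipocyte genes fell in order in 15 of 17 members (11 with library-total scaling), and 8 of these had both steps called, against 12.5% and 1.53% of all genes. In the inner step 16 of 17 were lower in parenchyma (median -6.16) with any single library left out, whereas 9 were lower in the outer step (median -1.42). The shares of all genes lower in these steps were 4.11% and 6.31%. PLIN1, the coat protein of fat cell lipid droplets, was at 51903, 46967 and 43956 in far stroma, 40463, 9847 and 17740 in close stroma and 159, 173 and 177 in parenchyma. Its 3 regions did not overlap, and the inner step of -6.82 ± 0.40 (adjusted p = 1.03e-05) was far larger than the outer step of -1.31 ± 0.40 (adjusted p = 0.0466), which was lost without any far stroma library, close stroma 4 or 5 or any parenchyma library (adjusted p = 0.0655 to 0.151) and by edgeR (adjusted p = 0.129). Library-total scaling, TMM scaling and no filter on low values ended that call of PLIN1 as well (adjusted p = 0.051 to 0.0791). CIDEC, another lipid droplet protein, had steps of -1.73 (adjusted p = 0.0167) and -7.24 (adjusted p = 1.03e-05). Adiponectin (ADIPOQ), a hormone of fat cells, was at 10236, 9390 and 8032, then 9496, 2505 and 6272, then 48.8, 46.4 and 35.7. Its outer step of -0.79 did not pass (adjusted p = 0.168) and its inner step of -6.91 did (adjusted p = 1.03e-05). Leptin (LEP) was at 7689, 3137 and 5053, then 3999, 965 and 1410, then 12.2, 8.91 and 9.16, an outer step of -1.5 (adjusted p = 0.0502) and an inner step of -7.32.

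The outer fall of adipocyte genes depended on single libraries. The 9 calls became 0 without far stroma 5 or close stroma 4 or 5, 1 without far stroma 4 or by edgeR, 3 and 5 without parenchyma 4 and 3, 4 with library-total scaling and 15 without close stroma 3. The outer call of CIDEC was lost without far stroma 4 or 5 or close stroma 4 or 5 (adjusted p = 0.051 to 0.0662). On the linear scale the median adipocyte gene had covered 19.9%, 80.3% and 72.9% of the way to parenchyma in the close stroma of heifers 3, 4 and 5, and on the log2 scale 4.03%, 31.1% and 22.7%, so that 8 members were called above the log2 midpoint (13 without close stroma 4). Genes of fatty acid and triglyceride synthesis fell too, with 11 of 15 members falling in order (7 with library-total scaling), 7 lower in the inner step (median -1.91) and 3 in the outer step (0 without far stroma 4 or 5 or close stroma 4 or 5, 8 without close stroma 3). Among all genes these shares were 12.5%, 4.11% and 6.31%. Stearoyl-CoA desaturase (SCD) was at 191008, 33823 and 100560, then 112620, 9423 and 28762, then 1337, 1421 and 874. Its inner step of -4.72 passed (adjusted p = 0.00919) and its outer step of -1.47 did not (adjusted p = 0.217). ME1, which supplies reducing power for lipid synthesis, had steps of -1.65 (adjusted p = 0.0249; 0.0607 to 0.0979 without far stroma 4 or 5 or close stroma 4 or 5, and 0.0674 by edgeR) and -3.11 (adjusted p = 0.00279).

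Respiratory chain genes fell in order with small steps. Of 21 members of oxidative phosphorylation with a mean of 50 or more, 13 fell in order in all 3 triplets against 12.5% of all genes (7 with library-total scaling). Of 22 members tested, 6 were called lower in the outer step (median -0.75, or -0.37 with library-total scaling), against 6.31% of all genes. In the inner step 0 were called by limma with all 9 samples (median -0.48), while 1 was called lower without close stroma 4 and 4 by DESeq2. NDUFA1, a subunit of complex I, was at 387, 454 and 555, then 291, 264 and 246, then 171, 168 and 198, an outer step of -0.79 (adjusted p = 0.0193). COX6A1, a subunit of cytochrome c oxidase, was at 5886, 6258 and 8224, then 5062, 2305 and 2430, then 1593, 1732 and 1616, an outer step of -1.14 (adjusted p = 0.0224). These calls, and all 6 of the list, were lost without far stroma 4 or 5 or close stroma 4 or 5, while 18 members were called without close stroma 3. The 6 became 1 with library-total scaling, 2 with all 11 samples and 3 by edgeR or without parenchyma 3 or 4. NDUFA1 was lost with library-total scaling and with all 11 samples (adjusted p = 0.133 and 0.0768), and COX6A1 by edgeR (adjusted p = 0.0523).

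The calls among connective tissue genes lay mainly in the outer step. Of 21 fibroblast and fibrillar collagen members, 6 were lower in close than in far stroma (median -1.2), 1 was lower in the inner step (median 0.07), and 4 fell in order. Among all genes these shares were 6.31%, 4.11% and 12.5%, so the inner count stood near its share. The 6 became 17 without close stroma 3, 13 with all 11 samples, 1 and 2 without close stroma 5 and 4, and 3 without far stroma 4 or parenchyma 4 or with library-total scaling. Decorin (DCN), a small proteoglycan that binds collagen, was at 48624, 64678 and 57111, then 27713, 18940 and 20252, then 16712, 16884 and 19906. Its outer step of -1.36 passed (adjusted p = 0.0108; 0.0517 to 0.0562 without close stroma 4 or 5), and its inner step of -0.31 did not (adjusted p = 0.554). Collagen I (COL1A1) was at 143028, 101549 and 47902, then 67400, 9257 and 11544, then 14947, 16312 and 49427, with wide overlap between close stroma and parenchyma and neither step past the threshold (-2.20 and 0.25, adjusted p = 0.0681 for the outer one). The cross-linking enzyme LOX was the member lower in the inner step, at 780, 198 and 258 in close stroma and 49.6, 39.2 and 71.4 in parenchyma (-2.70, adjusted p = 0.0163; 0.0571 to 0.0767 without parenchyma 3 or 4).

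Basement membrane genes split by chain. Of 14 members, 4 were higher and 3 lower in close than in far stroma, and 4 rose and 5 fell in order. The shares over all genes were 11.3%, 6.31%, 12.4% and 12.5%. The collagen IV chain COL4A5 rose from 45.6, 35.0 and 30.6 through 106, 179 and 248 to 263, 266 and 420, with an outer step of 2.16 ± 0.33 (adjusted p = 0.00146). COL4A2, of the widespread collagen IV network, fell from 37489, 29689 and 24170 through 25027, 7604 and 9059 to 2770, 3329 and 3552, with steps of -1.32 (adjusted p = 0.0455) and -1.91 (adjusted p = 0.0239). The outer call of COL4A2 was lost without any library but close stroma 3 (adjusted p = 0.0665 to 0.176), with library-total scaling (adjusted p = 0.074), with TMM scaling (adjusted p = 0.0518), with all 11 samples (adjusted p = 0.0542) and by edgeR (adjusted p = 0.107), and the inner call without any single parenchyma library (adjusted p = 0.0679 to 0.0975). Agrin (AGRN), a heparan sulphate proteoglycan, rose in order from 586, 416 and 616 through 996, 1598 and 1744 to 2397, 2565 and 4069, an outer step of 1.40 ± 0.28 (adjusted p = 0.00659) and an inner step of 1.06 that did not pass (adjusted p = 0.0512). The 4 higher calls became 2 without far stroma 4 or 5 or close stroma 4 or 5, with all 11 samples or by edgeR, and the 3 lower calls 0 without close stroma 5 and 8 without close stroma 3. TIMP2, an inhibitor of matrix proteases, fell in both steps, at 18713, 33545 and 23102, then 15181, 6173 and 6513, then 1889, 1596 and 3473 (-1.52 and -1.96, adjusted p = 0.0281 and 0.0222). Its outer call was lost without far stroma 4 or 5 or close stroma 4 or 5 (adjusted p = 0.0755 to 0.117) or by edgeR (adjusted p = 0.0556), and its inner call without close stroma 3 or parenchyma 3 or 4 (adjusted p = 0.0613 to 0.105).

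Members of the WNT list moved in both directions. Of 27 members tested, 11 were higher and 3 lower in close than in far stroma, against 11.3% and 6.31% of all genes. In the inner step 2 were lower, against 4.11% of all genes. Of 25 members with a mean of 50 or more, 9 rose and 4 fell in order, against 12.4% and 12.5% of all genes. The falls in order thus stood near the share over all genes. The 11 higher calls became 9 without far stroma 4 and 8 without close stroma 4 or 5. The 3 lower calls became 1 without far stroma 4 or 5 or close stroma 4 or 5 and 5 without close stroma 3. The 2 inner calls became 0 without close stroma 3 or 5 or parenchyma 4 or 5, 1 without parenchyma 3, and 4 without far stroma 3 or by DESeq2. The ligand WNT5B was at 20.4, 29.3 and 27.4, then 149, 223 and 153, then 304, 246 and 268, an outer rise of 2.71 ± 0.25 (adjusted p = 4.38e-05), and the ligand WNT6 rose by 2.95 ± 0.41 (adjusted p = 0.000732). DKK1, an inhibitor of WNT co-receptors, had 1 read in far stroma and stood at 47.0, 82.5 and 94.2 in close stroma and 104, 133 and 96.1 in parenchyma, a ratio of close to far stroma of 175 (95% counting interval 31.2 to 6960). RSPO3, described above, fell in both steps. SFRP4, another secreted WNT inhibitor, was at 1349, 1873 and 1227, then 450, 134 and 180, then 160, 341 and 1306, a fall of 2.71 on the log2 scale in the outer step (adjusted p = 0.0187; 0.0665 to 0.0806 without far stroma 4 or close stroma 4 or 5).

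Calls among vessel genes lay in the inner step more than in the outer step, an order that turned without heifer 3. Of 18 blood endothelium members, 10 were lower in parenchyma than in close stroma (median -1.12) and 3 lower in close than in far stroma (median -0.72), with 5 falling in order (1 with library-total scaling). The shares over all genes were 4.11%, 6.31% and 12.5%. The 10 became 2 without parenchyma 3 or 4, 3 without parenchyma 5 and 4 without close stroma 3. The 3 became 0 without any library of heifers 4 and 5, 0 with library-total scaling, with all 11 samples or by edgeR, and 11 and 10 without far stroma 3 and close stroma 3. Without heifer 3 altogether, 14 were lower in the outer and 3 in the inner step. PECAM1, an adhesion molecule of vessel walls, was at 3945, 3809 and 3337, then 3451, 2669 and 1611, then 1051, 977 and 1071, an inner step of -1.25 ± 0.25 (adjusted p = 0.0183; 0.0535 to 0.0848 without close stroma 3 or any single parenchyma library). The angiopoietin receptor TEK was at 874, 1304 and 1924, then 1276, 659 and 767, then 225, 178 and 210, an inner step of -2.08 ± 0.31 (adjusted p = 0.00414). In heifer 3 close stroma lay above far stroma for TEK, and over the list its median position was -11.7% of the way to parenchyma, against 57% and 84.3% in heifers 4 and 5. DLL4, a Notch ligand of sprouting vessels, fell in both steps, at 928, 1115 and 1056, then 650, 570 and 409, then 169, 220 and 232 (-0.95 and -1.37, adjusted p = 0.0128 and 0.00503). The outer call of DLL4 was lost without close stroma 5 (adjusted p = 0.0607), with library-total scaling (adjusted p = 0.0528) and with all 11 samples (adjusted p = 0.0769).

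Growth factors of the paracrine list were higher in close than in far stroma for 6 and lower for 3 of 24 tested, with 4 lower in the inner step. Over all genes the shares were 11.3%, 6.31% and 4.11%. The 3 lower calls became 0 without far stroma 5 or close stroma 4, 1 without close stroma 5 or with library-total scaling, 5 without far stroma 3 or by DESeq2, and 6 without close stroma 3 or with the heifer block. FGF2, a fibroblast growth factor, was at 1001, 1378 and 1371, then 1028, 616 and 1089, then 298, 318 and 226, so that far and close stroma overlapped, and its inner step of -1.67 ± 0.25 passed (adjusted p = 0.00422). FGF1 fell in order from 2687, 973 and 1511 through 1138, 310 and 780 to 56.9, 76.7 and 70.5, an inner step of -3.25 ± 0.46 (adjusted p = 0.00328) and an outer step of -1.28 that did not pass (adjusted p = 0.0742). IGF1, at 220, 46.3 and 45.2, then 143, 114 and 120, then 124, 81.1 and 145, had an outer step of 0.69 that did not pass (adjusted p = 0.371), and far stroma of heifer 3 held its highest value. IGFBP6, a binding protein of insulin-like growth factors, fell from 7203, 10223 and 7658 to 3960, 1101 and 902 in the outer step, by 2.39 on the log2 scale (adjusted p = 0.00595), and stood at 455, 624 and 747 in parenchyma.

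Close stroma above both neighbours was seen for 277 genes, none with both steps called, and the 8 with the largest smaller step were CSN1S1, ADAMDEC1, SLC27A6, SAMD8, RNASE1, ATF3, CCDC71L and BTG2. CSN1S1, which encodes a major milk casein, was at 8.4, 22.6 and 58.1 in far stroma, 2678, 47.8 and 30758 in close stroma and 1785, 24.1 and 44.9 in parenchyma. The close stroma values overlapped those of parenchyma, and neither step passed (6.08 and -3.65, adjusted p = 0.067 and 0.317). Beta-casein (CSN2) was at 21.6, 36.1 and 96.8, then 5598, 96.6 and 60926, then 5476, 126 and 109, with an outer adjusted p of 0.0584. GLYCAM1, a mucin-like milk protein, was at 75.7, 10.3 and 3972 in close stroma and at 87.8, 0 and 0.92 in parenchyma. The close stroma of heifer 5 was thus the highest of the 9 samples for these 3 genes, and that of heifer 4 the lowest of the close stroma samples. Kappa-casein (CSN3), at 12.0, 24.8 and 48.4, then 5274, 4442 and 17143, then 8063, 8598 and 2260, was higher in every close stroma than in every far stroma sample (8.18 ± 0.65, adjusted p = 1.33e-05). Lactoferrin (LTF), an iron-binding defence protein, was at 81.6, 88.0 and 111, then 14172, 41693 and 27159, then 66911, 40136 and 68269, an outer step of 8.07 ± 0.37 (adjusted p = 4.17e-07). The epithelial keratin KRT8 was at 1895 in the close stroma of heifer 5, between the 1429 and 2490 of heifers 3 and 4. Whether the milk protein levels follow the amount of epithelium in each piece was not tested.

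**Figure D5:**
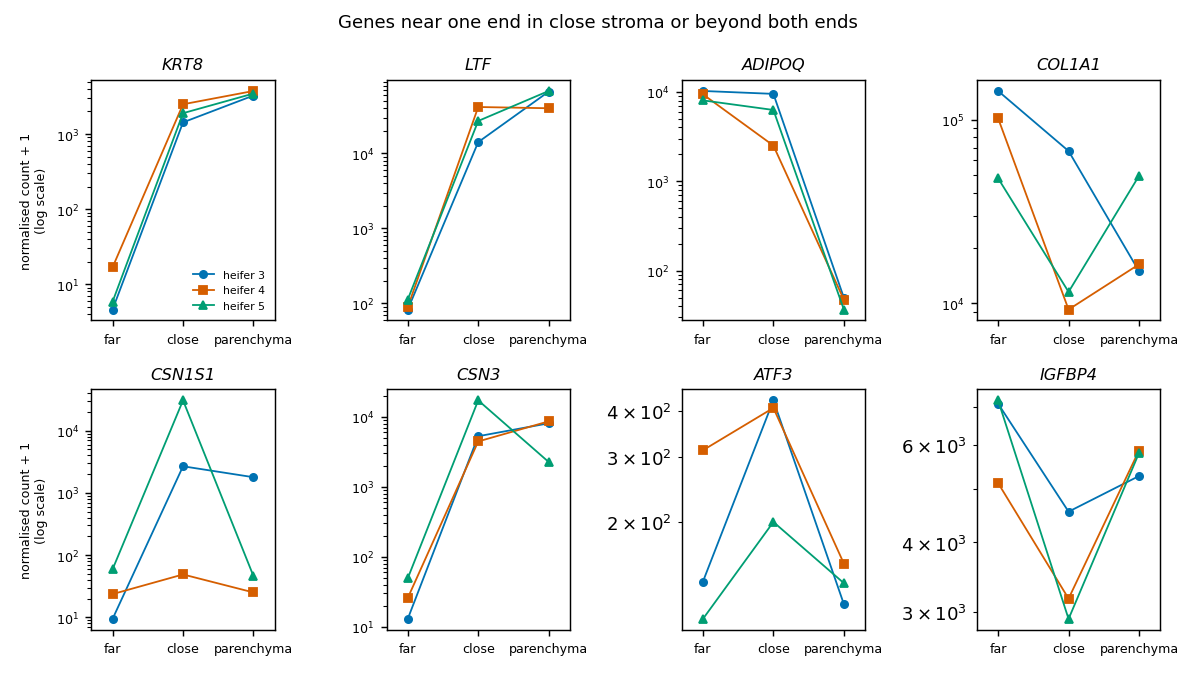
Normalised counts (log axis, value plus 1) of 8 genes in far stroma, close stroma and parenchyma, with each heifer as a line of 3 points. KRT8 and LTF are far above their far stroma level in close stroma, ADIPOQ is at 2505 to 9496 in close stroma and at most 48.8 in parenchyma, CSN1S1 is at 30758 in the close stroma of heifer 5 and 47.8 in that of heifer 4, and ATF3 is highest and IGFBP4 lowest in close stroma in each heifer.

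Among the other genes above both, ATF3, a stress-induced transcription factor, was at 137, 313 and 108, then 428, 408 and 199, then 119, 153 and 136. The order held in each heifer. The steps of 0.97 and -1.27 did not pass (adjusted p = 0.111 and 0.0928). ADAMDEC1, a protease of macrophages and dendritic cells, was at 1.2, 3.39 and 4.84, then 8.63, 143 and 77.9, then 1.63, 13.4 and 29.3, with an outer step of 3.64 (adjusted p = 0.0396) that was lost without any far stroma library, close stroma 4 or 5 or parenchyma 4 (adjusted p = 0.0595 to 0.158). BTG2, an antiproliferative immediate early gene, was at 270, 143 and 71.0, then 499, 265 and 176, then 157, 141 and 143, and neither of its steps passed. Of 20 immediate early and stress genes, 5 were lower in parenchyma than in close stroma (median -1.22; 2 without close stroma 3 or parenchyma 3 or 4, 10 with the heifer block) and 2 higher in close than in far stroma (median 0.29). Among all genes these shares were 4.11% and 11.3%, so the outer count stood near its share. KLF4, a Kruppel-like transcription factor, was at 2721, 4914 and 3339, then 2561, 2175 and 1158, then 381, 463 and 578, an inner step of -1.99 ± 0.31 (adjusted p = 0.00563). With library-total scaling 7 of the 19 with a mean of 50 or more lay above both others in all 3 triplets and 0 fell in order, against 2 and 3 with the deposited scaling. The interferon-stimulated gene IFI44 was above both in each heifer as well, at 25.2, 14.7 and 24.2, then 68.1, 107 and 117, then 57.7, 96.3 and 61.3, with an outer step of 2.14 ± 0.35 (adjusted p = 0.00205) and an inner step of -0.43 that did not pass (adjusted p = 0.477). TGFB2, a transforming growth factor, was at 256, 107 and 136, then 268, 384 and 361, then 248, 176 and 352, and its outer step of 1.10 (adjusted p = 0.049) was lost without any library but far stroma 3 and close stroma 3 (adjusted p = 0.0501 to 0.161). With all 11 samples, by edgeR and with no filter on low values that step of TGFB2 had adjusted p-values of 0.0942, 0.0655 and 0.0527.

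Close stroma below both neighbours was seen for 451 genes, and the 8 with the largest smaller step were CHST8, CD248, TNFRSF25, LY6G5B, CHRD, ASB11, TMEM266 and CRABP2, all with at least 1 step uncalled. CHRD, a secreted antagonist of bone morphogenetic proteins, was at 154, 348 and 208 in far stroma, 99.7, 89.1 and 72.5 in close stroma and 148, 211 and 167 in parenchyma. Close stroma did not overlap the other regions, with an outer step of -1.36 ± 0.30 (adjusted p = 0.0127; 0.0609 without close stroma 5) and an inner step of 1.00 (adjusted p = 0.0821). CD248, a surface protein of fibroblasts and pericytes, was at 3154, 2040 and 1361, then 1570, 699 and 610, then 1864, 1568 and 2441, an outer step of -1.24 (adjusted p = 0.0476) and an inner step of 1.14 (adjusted p = 0.112). The outer call of CD248 was lost without any library but far stroma 5 and close stroma 3 (adjusted p = 0.0605 to 0.175), with library-total scaling (adjusted p = 0.0926), with TMM scaling (adjusted p = 0.0525) and by edgeR (adjusted p = 0.0772). IGFBP4 was at 7109, 5116 and 7208, then 4544, 3169 and 2913, then 5268, 5855 and 5796, so that every close stroma value lay below every other value, with an outer step of -0.88 ± 0.23 (adjusted p = 0.0253) and an inner step of 0.70 (adjusted p = 0.104). That outer call was lost without far stroma 5 or close stroma 4 or 5 (adjusted p = 0.0963 to 0.113) and with library-total scaling (adjusted p = 0.0985). CRABP2, which carries retinoic acid within cells, was at 432, 921 and 356, then 299, 333 and 214, then 430, 571 and 720, and neither of its steps passed (adjusted p = 0.0847 and 0.112). Macrophage genes were lower in close than in far stroma for 3 of 15 members and higher for 1, against 6.31% and 11.3% of all genes. The 3 became 0 without close stroma 4 or 5, 1 without far stroma 4 or with library-total scaling, 5 by DESeq2 and 6 without far stroma 5. The scavenger receptor CD163 was at 1229, 2335 and 627, then 538, 134 and 361, then 142, 63.3 and 113, an outer fall of 2.03 on the log2 scale (adjusted p = 0.0313; 0.0748 to 0.117 without far stroma 4 or close stroma 4 or 5).

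Heifer 1 gave the ends of the gradient in an animal that had no part in choosing the shapes. Its parenchyma was above its far stroma for 1494 of the 1505 rising genes (99.3%) and below it for 1483 of the 1508 falling genes (98.3%). The same held for all 101 rising and all 185 falling genes with both steps called. All genes higher in parenchyma than in far stroma in all 3 triplets, the rising ones included, kept that direction in heifer 1 for 3920 of 4329 (90.6%). Those lower, the falling ones included, did so for 3800 of 4241 (89.6%). These sets were not matched to the shapes for the size of the difference. COL26A1, for example, went from 3.91 in its far stroma to 211 in its parenchyma, and PLIN1 from 46599 to 186.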

How the data were processed

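The signal analysed is the authors' deposited normalised count of each gene. The table has 16279 genes, of which 14300 carry a symbol and 47 symbols recur. Per the submitters' processing notes, the build was ARS-UCD1.2, and STAR, HTSeq, cutadapt and DESeq2 are listed without versions. Whether counting used strand is not stated, so reads of overlapping or antisense genes cannot be told apart. Dividing by the worth of 1 read (0.813 to 1.61 in the 9 samples) brought 100% of values to within 0.01 of a whole number, so whole reads were recovered. A column name with an unexplained last letter was read as close stroma 4 from the rest of its name.

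Log2(value + 1) was tested with limma 3.58.1 (R 4.3.3, variance trend) in 1 fit of 3 regions and 9 samples, for 14581 genes with a highest region mean of 10 or more, with Benjamini-Hochberg adjustment. Such differences understate the change of low genes. Alternatives were edgeR 4.0.16 and DESeq2 1.42.0 on recovered reads, other scalings, pseudocounts of 0.5 and 5, no filter, all 11 samples and leaving out libraries. To check the code, the model steps were run on simulated counts with the same dispersion for every gene. The simulation had no differences between heifers or between far stroma and parenchyma, so it cannot speak for the calls made here. Groups with 0 to 3 reads are given as read ratios, with a floor of 3 reads over the group and 95% exact intervals, which cover counting error only. Python 3.11.15 with pandas 2.3.3 and numpy 2.4.6 counted the shapes.

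Replicates are heifers, 1 sample per region and heifer. The labels name the animal, so the numbers pair the samples. Deviations from region means correlated at 0.132 to 0.359 in the 9 same-heifer pairs and at -0.25 to 0.132 in the 18 other pairs. The results come from the fit without a heifer block.

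The members, the 35 gene lists (9 to 29 genes) and the tests were chosen with earlier results of these data known. Named genes were the 8 with the largest smaller step per shape, 19 fixed genes, and up to 4 members per list by the smallest p for close stroma against the log2 midpoint and up to 4 by the smallest p over the regions, with list members above or below both. CD4, ZAP70, NGFR and the genes without a symbol were named after their values were seen.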

Additional observations from a re-analysis of the deposited data

How the results depend on the processing

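Of 407 called differences of named genes, 0 changed direction over all alternatives, and of 8547 values 1082 no longer passed. With the heifer as a block, 8 named calls did not pass, the inner count was 1184, and 183 rising and 283 falling genes, 1 gene above both and 1 below both had both steps called. With DESeq2 the inner count was 1792, the midpoint count 566, and both steps were called for 319 rising, 371 falling and 5 genes below both. With edgeR the midpoint count was 336 and 105 falling genes had both steps called. The midpoint taken on the linear scale gave 0 calls. With library-total scaling the shapes numbered 2512 rising, 767 falling, 431 above and 116 below, and 153 rising and 94 falling genes had both steps called. A minimum of 200 left 157 genes above both, and steps of at least 1.5-fold left 259, 121, 3 and 0. With all 11 samples 3 genes below both had both steps called.

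Leaving out samples or heifers gave 570 to 5460 outer calls, 46 to 1203 inner calls, 3727 to 7433 over the whole distance and 23 to 1095 at the midpoint. With a heifer left out, 1922 to 2168 genes rose, 1962 to 2254 fell, 406 to 1448 lay above and 692 to 1475 below, and both steps were called for 1 to 23, 2 to 173, 0 to 4 and 0 to 6 of them. Heifer 3 left out, and the linear midpoint, were chosen after seeing the data. The cause of these changes was not tested. Depth limits genes with few reads in far stroma or parenchyma, for which read ratios with wide intervals are given.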

Other observations

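Genes outside the lists with both steps called, chosen after their values were seen, included enzymes of fatty acid oxidation. Their calls were not followed with single libraries left out, so how far they hold is not known. Over all genes both steps were called for 185 falling and 101 rising genes. Without heifer 4 altogether these counts were 7 and 23, and without heifer 5 they were 2 and 1. Which cells of the bulk tissue carried the genes named here was not tested. HADHA and HADHB, the subunits of the mitochondrial trifunctional protein of fatty acid oxidation, fell in order. HADHA was at 5436, 6697 and 6432 in the far stroma of heifers 3, 4 and 5, 4978, 2152 and 2978 in close stroma and 1352, 1292 and 1463 in parenchyma (steps of -0.96 and -1.21 on the log2 scale). HADHB had steps of -0.98 and -1.47, and the long-chain acyl-CoA dehydrogenase ACADL -1.05 and -2.86. Retinoid genes were seen as well, with the retinoic acid hydroxylase CYP26B1 at 520, 284 and 308, then 177, 88.1 and 77.9, then 22.8, 25.9 and 30.2 (-1.73 and -1.99). Prostacyclin synthase, PTGIS, was at 1889, 4973 and 2758, then 1282, 614 and 514, then 67.5, 83.8 and 174 (-2.00 and -2.88).

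Among rising genes, FOXJ1, a transcription factor of ciliated cells, was at 0, 0 and 1.61 in far stroma, 26.8, 29.1 and 20.8 in close stroma and at least 87.4 in parenchyma. The inhibitory antibody receptor FCGR2B was at 109, 214 and 67.7, then 1016, 473 and 627, then 3474, 3219 and 1506. Both rose in each heifer without overlap between regions.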
